A study of Mus musculus with 8 samples.

Results

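The opioid receptors and nociceptin were represented on the array by 9 probes of 5 genes, chosen as every non-control probe whose gene name in the array files was Oprm1, Oprd1, Oprk1, Oprl1 or Pnoc. The array files hold 30175 gene names in all, and the 9 probes took up 18 of 43020 spots and were 9 of 39429 probes. Oprm1 had 4 probes and 13 spots, Oprl1 had 2 probes and 2 spots, and Oprd1, Oprk1 and Pnoc had 1 probe and 1 spot each. No further probe carried an accession of one of the 5 genes.

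The samples were striata of adult female mice on a C57Bl/6J background, 4 wildtype and 4 heterozygous Brd2+/-, the latter with a gene-trap vector in 1 Brd2 copy. Both genotypes were bred from matings of heterozygous parents, and the labels name no treatment. Brd2 is a BET family gene, and its bromodomain protein binds acetylated histones. The tissue label names the prefrontal cortex beside the striatum, whereas the sample descriptions name the striatum only. Replicates 1 and 3 of each genotype were labelled with Cy3 and replicates 2 and 4 with Cy5, and each of the 4 arrays held 2 samples of 1 genotype.

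Oprm1, Oprd1 and Oprk1 encode the mu, delta and kappa opioid receptors, and Oprl1 encodes the nociceptin receptor, which resembles them in sequence but binds nociceptin, the peptide cut from the precursor Pnoc. All 4 receptors couple to inhibitory G proteins, which lower cAMP, open inwardly rectifying potassium channels and close presynaptic calcium channels. In the rodent striatum the mu receptor is concentrated in striosomes, patches set in a surrounding matrix. There the enkephalins and dynorphins, which activate the mu, delta and kappa receptors, come from projection neurons of the indirect and direct pathway.

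The probes on which the results turn are shown first, as strands in transcript sense and in mm9 coordinates of the array files. The first is the Oprm1 coding probe that was printed in 10 spots, in which capitals mark the codons of the NPxxY motif that rhodopsin-like receptors share. The second is the stretch of the Oprm1 probe recorded in every sample that holds a run of AC dinucleotides, in capitals. The last pair are the Oprk1 probe and an Oprl1 probe that was not tested, which reach the end of the reading frame, with the stop codon in capitals.
Oprm1 A_51_P100309: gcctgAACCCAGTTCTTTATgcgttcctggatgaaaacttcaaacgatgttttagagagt
Oprm1 A_55_P2025443: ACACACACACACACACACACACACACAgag
Oprk1 A_51_P377528: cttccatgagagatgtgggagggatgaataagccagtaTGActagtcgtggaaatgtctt
Oprl1 A_55_P2066598: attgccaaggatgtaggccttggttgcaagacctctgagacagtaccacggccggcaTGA

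Values are log2 intensities after background correction and normalization, SDs are taken after removal of the dye effect, and differences are heterozygous minus wildtype with the standard error (SE) and 95% interval of the limma fit. A probe was tested if the scanner software called it well above background in at least 4 of the 8 samples, and was called changed at an adjusted p under 0.05. The level of one probe was not set against that of another, since probes differ in how strongly they bind. The share of spots well above background ran from 37.7% to 47.6% in Cy3 and from 65.9% to 75.5% in Cy5, with negative control spots at 244 to 261 in Cy3 and 63 to 67 in Cy5, so more spots were recorded in Cy5. The Brd2 probe A_55_P1958678 had a mean of 12.86 ± 0.25 (SD, n = 4) in the wildtype group. In the heterozygous group the mean was 12.00 ± 0.30 (SD, n = 4), lower by a log2 difference of -0.85 (SE 0.190), which missed the threshold in limma (adjusted p = 0.391). The library labelled heterozygous replicate 3 measured 12.57 there, close to the 12.64 of the lowest wildtype sample but below it. The groups did not overlap after removal of the dye effect. This library also had the lowest share of spots well above background, 37.7%. Whether its label is right was not tested, and values without the library are given where they differ in sign or by more than 1.5 times. Without it the Brd2 difference was -1.03 (SE 0.148, adjusted p = 0.264 in limma). A second Brd2 probe, A_55_P1953545, well above background in 5 of 8 samples, had a difference of 0.29 (SE 0.170, adjusted p = 0.645 in limma), opposite in sign. No label says whether a sample was 1 animal or a pool, so the p-values reflect only how far these samples spread, which may be technical.

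In wildtype striatum the probes of Pnoc and Oprk1 and the 3′ probe of Oprl1 were recorded in every sample. The Oprm1 coding probe and the Oprl1 probe at the end of the reading frame were recorded in none. At least 1 probe of Oprm1, Oprk1, Oprl1 and Pnoc was well above background in all 4 wildtype samples. For Oprm1 it was only A_55_P2025443, whose sequence is largely repeats, while A_55_P2087458 cleared background in 2 wildtype samples and its other probes in none. Oprd1 was well above background only in the Cy5 samples. Of the 9 probes, 4 were well above background in all 4 wildtype samples and 3 in none, and 38.8% and 30.9% of all probes on the array were. Over both genotypes 3 of the 9 were well above background in all 8 samples, where 31.7% of all probes were.

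**Figure D1:**
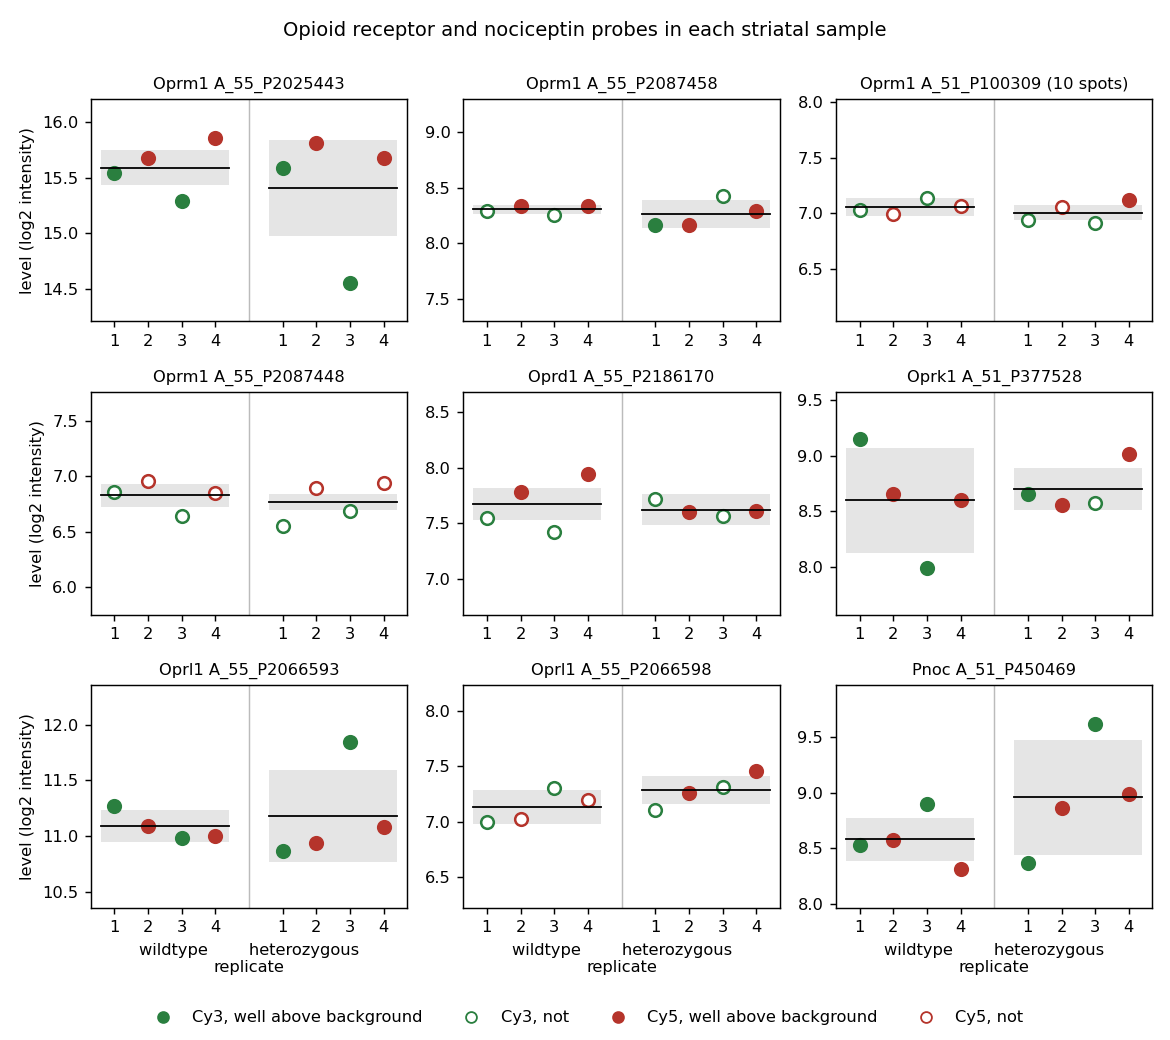
Level (log2 intensity, no dye effect removed) of each of the 9 probes in the 4 wildtype and 4 heterozygous samples; colours give the dye, filled points are well above background, and lines and bands are the group mean and 1 SD after removal of the dye effect. The bands of the genotypes overlap for every probe, and the library labelled heterozygous replicate 3 is the highest sample for Pnoc (9.62) and Oprl1 A_55_P2066593 (11.85) and the lowest for Oprm1 A_55_P2025443 (14.55).

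The mu receptor gene Oprm1, which encodes the main target of morphine, was read by 4 probes at different positions of its transcripts, and they gave different pictures of its detection. The coding probe A_51_P100309 (chr10:3516154-3516213, minus strand) starts at base 1264 of the transcript it was designed on. Its mean over the spots was 7.03, 6.99, 7.14 and 7.06 in wildtype replicates 1 to 4. In heterozygous replicates 1 to 4 it was 6.94, 7.06, 6.92 and 7.12. All 8 values lay within a narrow band and the genotypes overlapped. This probe could be read in 9 or 10 spots per sample after outlier spots were left out, and the SD over the spots of a sample was 0.06 to 0.25. No spot was well above background in any wildtype sample, or in heterozygous replicates 1 and 3. In heterozygous replicates 2 and 4, both Cy5, 4 and 9 of the spots were. Its intensity was 1.02 and 1.09 times the median negative control in the wildtype Cy3 samples and 1.37 and 1.47 times in the wildtype Cy5 samples. The probe did not enter the test, and at these levels a genotype difference in the message it reads was not detectable.

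The most 5′ Oprm1 probe, A_55_P2087448 (chr10:3555486-3555545, minus strand, from base 135), was well above background in none of the 8 samples. Its levels ran from 6.65 to 6.96 in wildtype and from 6.56 to 6.94 in heterozygous samples, and it was not tested. The probe A_55_P2087458 (chr10:3551689-3551748, minus strand, from base 517) cleared background in 2 wildtype and 3 heterozygous samples, which included all 4 Cy5 samples. It measured 8.29, 8.33, 8.25 and 8.34 in wildtype replicates 1 to 4, and 8.17, 8.17, 8.42 and 8.29 in heterozygous replicates 1 to 4. The wildtype values stood within the range of the heterozygous ones. Its difference was -0.04 (SE 0.102, 95% interval -0.28 to 0.20, adjusted p = 0.913 in limma). Leaving out heterozygous replicate 1 gave 0.0049, and leaving out the library labelled heterozygous replicate 3 gave -0.10.

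The most 3′ Oprm1 probe, A_55_P2025443 (chr10:3308332-3308391, minus strand, from base 2581), was far above background in all 8 samples. In wildtype replicates 1 to 4 it measured 15.54, 15.67, 15.29 and 15.86. In heterozygous replicates 1 to 4 it measured 15.59, 15.81, 14.55 and 15.68. The library labelled heterozygous replicate 3 was the lowest, and the other 3 heterozygous samples lay among the wildtype values. The difference was -0.18 (SE 0.218, 95% interval -0.69 to 0.32, adjusted p = 0.808 in limma). Without that library it was 0.05 (SE 0.127, adjusted p = 0.900 in limma), and without heterozygous replicate 1 it was -0.37 (SE 0.179, adjusted p = 0.466 in limma), so neither sign nor size held when 1 sample was left out.

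**Figure D2:**
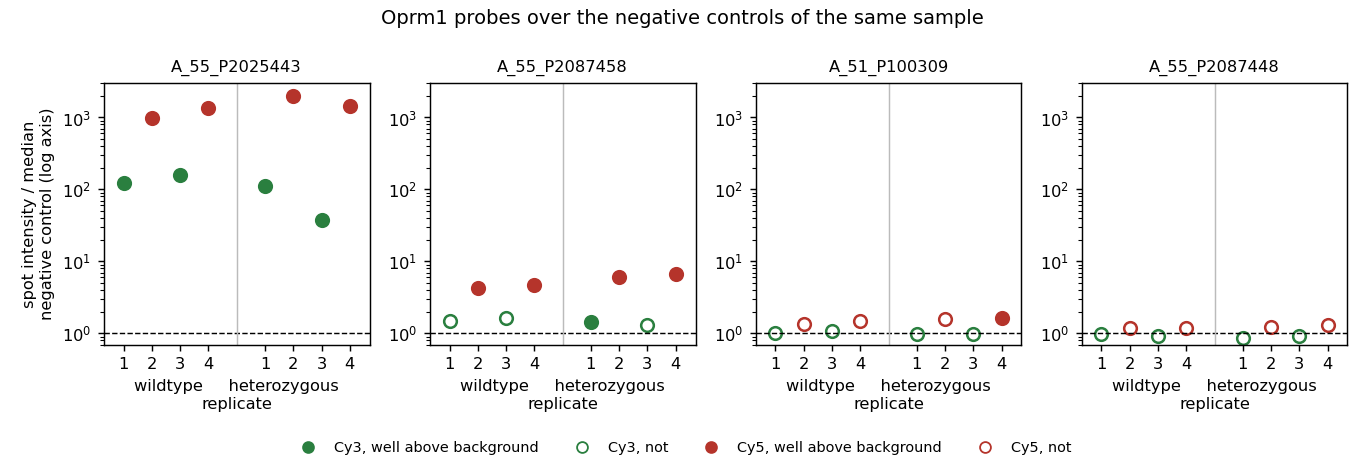
Spot intensity of the 4 Oprm1 probes divided by the median negative control spot of the same sample (log axis, dashed line at 1), by genotype, replicate and dye; filled points are well above background. The coding probe A_51_P100309 stays between 0.98 and 1.63 times the negative controls. A_55_P2025443 is filled in all 8 samples, and probes are to be read each against the dashed line, not against each other.

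The sequence of this Oprm1 probe is largely repeats. Of its 60 bases, positions 21 to 47 from the 5′ end are an unbroken run of alternating A and C, 27 bases long, and positions 47 to 60 are a run of alternating A and G, 14 bases long. Such dinucleotide runs occur at many places in mouse transcripts. The following description was chosen after the values were seen. An AC or GT run of at least 20 bases was found in 75 other probes. Of these, 69 (92.0%) were well above background in all 8 samples, against 31.7% of all probes. By kind of run it was 20 of 23 (87.0%) with an AC run and 49 of 52 (94.2%) with a GT run. For the 23 other probes with an AC run, the median level relative to the wildtype mean, after removal of the dye effect, was 0.10, -0.12, 0.10 and -0.06 in wildtype replicates 1 to 4. In heterozygous replicates 1 to 4 it was 0.25, -0.10, -0.94 and -0.18.

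The Oprm1 probe on the same scale stood at 0.21, -0.17, -0.05 and 0.01 in the wildtype samples. It stood at 0.25, -0.04, -0.78 and -0.17 in the heterozygous samples. The lowest value of both sets was in the library labelled heterozygous replicate 3. Of the 23 other AC-run probes, 22 had a negative genotype difference, where 13583 of all 25306 tested probes did. Their median difference was -0.24, and 0 were called. It is given only with the library labelled heterozygous replicate 3 included, where their median level was -0.94. Probes that share a run need not vary independently, so the 22 are not separate observations of a genotype difference. The 52 probes with a GT run had a median difference of 0.04, with 15 negative. How much of the signal of A_55_P2025443 came from Oprm1 transcripts was not tested.

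Oprd1, the delta receptor gene, whose product binds enkephalins, lay near background. Its single probe A_55_P2186170 (chr4:131666647-131666706, minus strand, from base 3955) was well above background in all 4 Cy5 samples and in no Cy3 sample. It measured 7.54, 7.79, 7.42 and 7.94 in wildtype replicates 1 to 4, and 7.72, 7.60, 7.56 and 7.61 in heterozygous replicates 1 to 4. The heterozygous values lay inside the wildtype range. The difference was -0.05 (SE 0.121, 95% interval -0.33 to 0.23, adjusted p = 0.915 in limma). It was 0.16 in the Cy3 samples and -0.26 in the Cy5 samples, and 0.02 without wildtype replicate 4, so no direction can be given.

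Oprk1, the kappa receptor gene, whose product binds dynorphins, was well above background in all 4 wildtype and 3 heterozygous samples. Its probe A_51_P377528 (chr1:5592825-5592884, plus strand, from base 1287) spans the stop codon. It measured 9.15, 8.65, 7.99 and 8.60 in wildtype replicates 1 to 4. In heterozygous replicates 1 to 4 it measured 8.66, 8.56, 8.58 and 9.02. Wildtype replicates 1 and 3, both Cy3, were the highest and the lowest of all 8 samples, and the exception to detection was the library labelled heterozygous replicate 3. The difference was 0.10 (SE 0.238, 95% interval -0.45 to 0.65, adjusted p = 0.907 in limma). It was 0.35 without wildtype replicate 1 and -0.13 without wildtype replicate 3.

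Oprl1, the nociceptin receptor gene, was read by 2 probes. The 3′ probe A_55_P2066593 (chr2:181455616-181455675, plus strand, from base 2924) was well above background in all 8 samples, at 6.81 to 40.2 times the median negative control in wildtype. It measured 11.27, 11.09, 10.98 and 11.00 in wildtype replicates 1 to 4, and 10.86, 10.94, 11.85 and 11.08 in heterozygous replicates 1 to 4. The library labelled heterozygous replicate 3 was above all other samples, and the other 3 heterozygous samples overlapped the wildtype range. The difference was 0.10 (SE 0.209, 95% interval -0.39 to 0.58, adjusted p = 0.899 in limma), and without that library it was -0.12 (SE 0.124, adjusted p = 0.724 in limma). Without heterozygous replicate 1 it was 0.28 (SE 0.171, adjusted p = 0.545 in limma). The probe at the end of the reading frame, A_55_P2066598 (chr2:181453983-181454042, plus strand, from base 1291), was well above background in 0 wildtype samples and in heterozygous replicates 2 and 4. Its levels ran from 7.00 to 7.30 in wildtype and from 7.11 to 7.46 in heterozygous samples. It was not tested, and both genotypes lay too near background for a fold.

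Pnoc, the nociceptin precursor gene, had the largest difference of the 6 tested probes, and it did not pass the threshold. Its probe A_51_P450469 (chr14:66020505-66020564, minus strand, from base 1102) was well above background in all 8 samples. It measured 8.53, 8.57, 8.90 and 8.31 in wildtype replicates 1 to 4. In heterozygous replicates 1 to 4 it measured 8.37, 8.86, 9.62 and 8.99. The library labelled heterozygous replicate 3 was the highest and only wildtype replicate 4 was below heterozygous replicate 1, so the groups overlapped. The means were 8.58 ± 0.19 (SD, n = 4) and 8.96 ± 0.52 (SD, n = 4). In linear terms the heterozygous level was 129.9% of wildtype, a log2 difference of 0.38 (SE 0.254, 95% interval -0.21 to 0.97, adjusted p = 0.671 in limma). In Cy3 samples the difference was 0.28 and in Cy5 samples 0.48, and neither dye alone passed the threshold. Without the library labelled heterozygous replicate 3 it was 0.16 (SE 0.223, adjusted p = 0.804 in limma), and without heterozygous replicate 1 it was 0.66 (SE 0.146, adjusted p = 0.316 in limma).

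**Figure D3:**
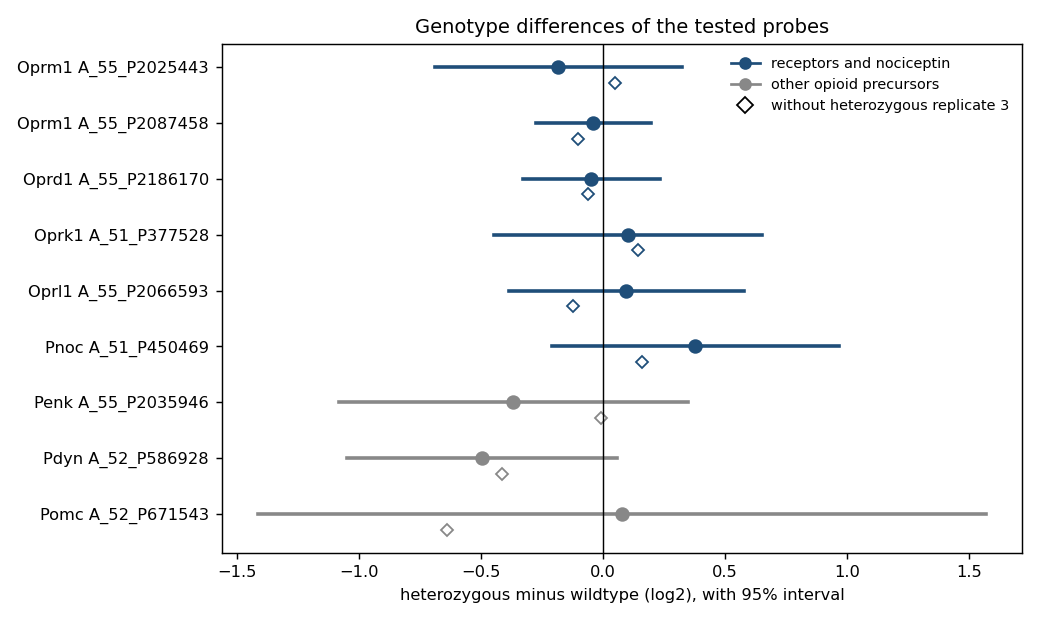
Heterozygous minus wildtype difference (log2) with its 95% interval for the 6 tested receptor and nociceptin probes and for the probes of Penk, Pdyn and Pomc; open diamonds give the difference without the library labelled heterozygous replicate 3. All 9 intervals include 0, and the diamonds of Oprm1 A_55_P2025443, Oprl1 and Pomc lie on the other side of 0 from their points.

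Of the 6 tested probes, 0 passed the threshold in limma, where 0.00395% of the 25306 probes with an estimate did. That share is 1 probe, of Btbd9, named here after its value was seen, with a difference of 1.82 (SE 0.140, adjusted p = 0.0343). None of the 6 (0) had an unadjusted p under 0.05, and 8.89% of all probes had one. After removal of the dye effect 0 of the 6 had groups that did not overlap, and 8.62% of the 23851 probes with values in every sample did. The differences were positive for 3 probes and negative for 3, with a median of 0.03 against -0.02 over all tested probes. Without the library labelled heterozygous replicate 3 the median was -0.0066 against -0.0107 over all tested probes, again with 3 positive and 3 negative. The 95% intervals were 0.47 to 1.18 wide on the log2 scale, with a median of 0.69 over all probes. As folds over wildtype, the narrowest interval, of Oprm1 A_55_P2087458, reached from 0.83 to 1.14, and the widest, of Pnoc, from 0.86 to 1.95.

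The other opioid peptide precursors are the sources of ligands of the mu, delta and kappa receptors. Penk, the enkephalin precursor of indirect pathway neurons, measured 17.24, 16.80, 17.11 and 16.98 in wildtype replicates 1 to 4. It measured 17.41, 16.57, 15.81 and 16.86 in heterozygous replicates 1 to 4. The library labelled heterozygous replicate 3 was lowest, and the other 3 heterozygous samples lay on both sides of the wildtype values. The difference was -0.37 (SE 0.309, adjusted p = 0.726 in limma). It was -0.01 without that library, -0.65 without heterozygous replicate 1 and -0.62 without heterozygous replicate 4. Pdyn, the dynorphin precursor of direct pathway neurons, measured 14.41, 13.82, 14.03 and 13.74 in wildtype replicates 1 to 4 with its probe A_52_P586928. It measured 13.90, 12.66, 13.62 and 13.83 in heterozygous replicates 1 to 4. Heterozygous replicate 2 was the lowest and the groups overlapped. The difference was -0.50 (SE 0.239, 95% interval -1.05 to 0.05, adjusted p = 0.581 in limma), and -0.26 (SE 0.159) without heterozygous replicate 2. The other Pdyn probe, A_66_P123898, differed by 0.09 (SE 0.206). It lay near background, well above it in 5 of 8 samples, at 7.40 to 7.94 in wildtype and 6.99 to 8.02 in heterozygous samples. Pomc, the precursor of beta-endorphin made in the hypothalamus, reached 12.15 in the library labelled heterozygous replicate 3, where the other 7 samples lay between 9.19 and 10.63. Its difference was 0.08 (SE 0.645, adjusted p = 0.980 in limma), and -0.64 without that library.

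Beside the 5 genes, 55 were listed as other peptide precursors, their processing and breakdown, receptor signalling, or striosome and matrix genes, of which 53 were tested and 0 were called. Kcnj5 and Cacna1b, which encode a potassium and a calcium channel subunit, were not tested. With 1 probe per gene, 12 had an unadjusted p under 0.05, and 8.95% of the 19831 genes with a test did. Differences were positive for 28 and negative for 25, with a median of 0.05 against -0.02 over all genes. Without the library labelled heterozygous replicate 3 the counts were 11 at an unadjusted p under 0.05, 30 positive and 23 negative, and 0 called in limma. Of the genes named from these lists, the smallest p belonged to Grk3, a kinase that phosphorylates activated receptors. Its difference was 0.60 (SE 0.136, adjusted p = 0.391 in limma). Its groups did not overlap after removal of the dye effect, nor did those of Pcsk1, Adcy8, Kcnj3, Kcnj6, Tshz1 and Kcnip1, named below. All of these were named for the smallest p of their lists. Adcy8, Kcnj3 and Kcnj6 were well above background in only 4 of 8 samples, all Cy5. Of the 23851 probes with values in every sample, 8.62% had groups that did not overlap. Arrb2, a beta-arrestin, differed by 0.44 (SE 0.162), and by 0.28 without heterozygous replicate 2. That list of 12 kinases, arrestins and RGS genes held 7 positive and 5 negative differences with a median of 0.10.

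All 4 tested channel genes had positive differences, with a median of 0.52, and 0 of them were well above background in every sample. Among them Kcnj3 and Kcnj6, subunits of the potassium channels that the receptors open, differed by 0.40 (SE 0.122) and 0.26 (SE 0.092). Of the 9 adenylyl cyclase and cAMP target genes 4 were positive and 5 negative. Adcy1 and Adcy8, calcium-stimulated cyclases, differed by 0.72 (SE 0.239) and 0.46 (SE 0.157), and Adcy8 was well above background only in Cy5 samples. The 5 inhibitory G protein genes held 2 positive and 3 negative differences, with Gnao1 at -0.29 (SE 0.154) and Gnai2 at 0.40 (SE 0.280). Gnai2 was at 0.15 without the library labelled heterozygous replicate 3 and at 0.68 without heterozygous replicate 1, and Gnao1 at -0.19 without wildtype replicate 2. The 6 precursor processing genes held 4 positive and 2 negative, with the convertase Pcsk1 at 0.33 (SE 0.108) and the amidating enzyme Pam at -0.39 (SE 0.160). The 4 enkephalin-degrading peptidases held 3 positive and 1 negative, with Dpp3 at 0.19 (SE 0.137) and Anpep at 0.06 (SE 0.090). Dpp3 ran from 0.08 without wildtype replicate 1 to 0.30 without wildtype replicate 3, and Anpep from 0.04 without the library labelled heterozygous replicate 3 to 0.09 without heterozygous replicate 1.

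Of the 7 striosome genes 2 were positive and 5 negative, with the transcription factor Tshz1 at -0.44 (SE 0.143) and Kcnip1, a potassium channel partner, at 0.38 (SE 0.129). The 3 matrix genes held 1 positive and 2 negative, with the calcium-binding protein gene Calb1 at -0.61 (SE 0.251) and the ephrin receptor gene Epha4 at -0.13 (SE 0.327). Without the library labelled heterozygous replicate 3, the striosome genes split into 4 positive and 3 negative and the matrix genes into 2 positive and 1 negative, with Epha4 at 0.23. The adjusted p of the signalling, striosome and matrix genes named here lay between 0.391 and 0.916 in limma.

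Markers of other brain regions differed between the samples beside these values. Over all 19831 genes with a test, 9033 differences were positive and 10798 negative, and 8.95% had an unadjusted p under 0.05. Genes of cortical excitatory neurons had positive differences for 9 of 9, 6 of them at an unadjusted p under 0.05, and their mean level relative to wildtype ran from -0.25 to 0.64 in wildtype and from 0.68 to 1.89 in heterozygous samples. Genes of striatal projection neurons had negative differences for 13 of 13, 3 of them at an unadjusted p under 0.05, with levels from -0.10 to 0.14 and from -1.06 to -0.02. GABAergic interneuron genes ran from -0.27 to 0.16 and from 0.18 to 0.75, with 5 positive and 3 negative, and 3 at an unadjusted p under 0.05. The library labelled heterozygous replicate 3 had septal, thalamic and hypothalamic genes at 1.69, where Pnoc, Oprl1 and Pomc were highest, and from -0.52 to 0.55 in the other heterozygous samples. Of these 9 tested genes 6 were positive and 3 negative, 1 of them at an unadjusted p under 0.05, and their wildtype levels ran from -0.32 to 0.21.

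Choroid plexus genes stood at 1.91 in the same library and at -0.92 in heterozygous replicate 1, where Pnoc was lowest among heterozygous samples, with 5 of 6 differences positive, 0 at an unadjusted p under 0.05, and wildtype levels from -0.21 to 0.14. In these 5 lists 0 genes were called in limma. Without the library labelled heterozygous replicate 3 the cortical genes still had 9 of 9 positive, and the projection neuron genes had 11 of 13 negative. The septal, thalamic and hypothalamic genes then had 4 positive and 5 negative, the choroid plexus genes 3 and 3, and the interneuron genes 6 and 2. Of the markers, Slc17a7, Tbr1, Neurod6, Emx1 and Fezf2, among others (cortex), Drd2, Adora2a, Pde10a and Tac1 (projection neurons), Nos1 and Vip (interneurons), Tcf7l2, Slc17a6, Avp, Oxt and Hcrt (septum, thalamus and hypothalamus) and Kcnj13, Folr1, Kl and Otx2 (choroid plexus) were not well above background in all 8 samples. Calb2, Zic2 and Pmch were not tested. The part of tissue composition in the receptor and nociceptin values was not tested, and in bulk tissue fewer cells of a type and less RNA per cell cannot be told apart.

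**Figure D4:**
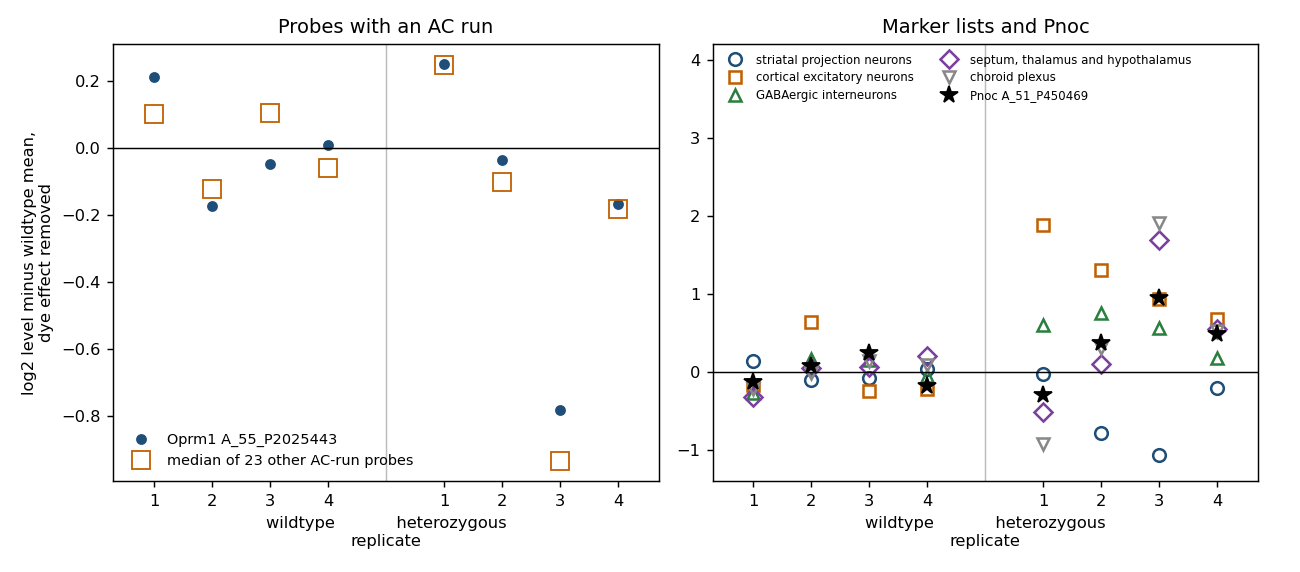
Level in each sample relative to the wildtype mean (log2, dye effect removed), for Oprm1 A_55_P2025443 and the median of 23 other AC-run probes (left) and for marker list means and Pnoc (right). In the library labelled heterozygous replicate 3 the Oprm1 probe is at -0.78 and the AC-run median at -0.94, and Pnoc, the septal, thalamic and hypothalamic genes (1.69) and the choroid plexus genes (1.91) are all above 0.

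For each gene's brightest tested probe, the 3 genes with the most similar pattern were found by Pearson's r over the 8 samples, after the mean of each dye was subtracted, among 10728 probes well above background and measured in all samples. Samples of one array share a hybridisation, and each gene was picked for the highest r among many probes over only 8 samples. High values are therefore built in by the search, and these values are descriptions. For Oprm1 A_55_P2025443 they were Pdcd4 (r = 0.99), whose probe also holds an AC or GT run, Sez6 (0.99) and Eloc (0.98). Pnoc was followed most closely by Keap1, Oplah and Map1lc3a (0.98 each). Oprl1 was followed by Aar2 (0.99) and Ptma-ps1 (0.98), among others. Oprk1 was followed by Pecam1 (0.97) and Tbc1d22b (0.96), among others, and Oprd1 by Lrtm2 (0.97), Ppp1r8 (0.96) and Mbd1 (0.93).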

How the data were processed

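The authors' files hold spot intensities, linear brightness with local background, from Agilent Feature Extraction 10.7.3.1 and array design 026655, per the file headers. Amplified RNA carried Cy3 or Cy5, per the labels' protocols. In the deposited value table each entry is a ratio, found from the values to be a spot's background-subtracted median intensity over the median of its column, and it served only as an alternative. Both samples of an array shared a file, and each was read from its own channel. In R 4.3.3 with limma 3.58.1 and statmod 1.5.0, normexp background correction (offset 50) was followed by loess within arrays, Aquantile between arrays and a split into single-channel log2 values. Left out were 1377 control spots, after that correction, and 230 to 978 outlier spots per sample; no spot was saturated. Replicate spots were averaged. A probe entered the test if well above background in at least 4 of 8 samples, which 25316 were, and 25306 of these gave an estimate. The model (lmFit, eBayes) held genotype and dye as fixed terms and the array as random block, with a consensus correlation of -0.01 and 2.87 prior degrees of freedom, and p-values were adjusted by Benjamini-Hochberg over all these probes. The number of arrays limits the precision. The slide and the scan were the same for all arrays. Every array carried a single genotype, so arrays were wholly nested in genotype and the genotypes could be compared only between arrays. A shift shared by the arrays of a genotype cannot be told apart from a genotype difference.

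Symbols other than those of the 5 genes were updated with RefSeq's GRCm38.p6 gene table: 27234 probes matched by accession, 3576 matched by symbol, and 8619 kept the name in the file. Sequences and mm9 coordinates are those of the array files, and no annotation of that build was used. The genes named were all probes of the 5 genes, Brd2, Penk, Pdyn, Pomc and the 2 genes with the smallest p of each signalling list, plus the 3 most similar genes of each gene's brightest probe. Some genes that these rules or lists pick are not reported here. These genes and lists were chosen with earlier results of these data known. A list's genes were each represented by their brightest tested probe. The fit was tested on simulated data. Alternatives changed the background correction, normalization, source of the values, filter, blocks, dye term, variance model and threshold, or left out a sample. Matplotlib 3.10.9 drew the figures.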

Additional observations from a re-analysis of the deposited data

How the results depend on the processing

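The count of called receptor and nociceptin probes was 0, and that of signalling genes 0, under all 23 alternatives. The count over all probes, 1, was 0 with loess without scaling between arrays, in the value table, without the filter, with the replicate block and in Cy3 samples alone, 2 at an adjusted p under 0.1, and 0 to 1 without single samples (1 only without the library labelled heterozygous replicate 3). Loess without scaling moved the median of all probes from -0.02 to 0.10. The sign of small differences turned as follows. With processed signals Oprm1 A_55_P2087458 was 0.0911, Oprd1 0.17, Oprk1 -0.0035, Pomc -0.0182 and Anpep -0.0159. Without scaling, Oprm1 A_55_P2087458 was 0.10, Oprd1 0.0255 and Epha4 0.0176. In Cy3 alone Oprm1 A_55_P2087458 was 0.0244 and Oprd1 0.16. In Cy5 alone Oprl1 was -0.038, Pomc -0.61 and Epha4 0.0064. In the value table Oprl1 was -0.0043 and Pomc -0.0108. Over single samples left out, Oprm1 A_55_P2025443 ran from -0.37 to 0.0497, A_55_P2087458 from -0.10 to 0.0049, Oprd1 from -0.12 to 0.0222, Oprk1 from -0.13 to 0.35, Oprl1 from -0.12 to 0.28, Penk from -0.65 to -0.01, Pdyn from -0.73 to -0.26, Pomc from -0.64 to 0.58, Gnai2 from 0.15 to 0.68 and Epha4 from -0.43 to 0.23. The causes were not tested. Of 26 single differences, none crossed the threshold under any alternative. Pnoc was positive under all of them, from 0.16 to 0.68.

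Samples with the same replicate number in the 2 genotypes did not deviate together (correlations 0.10 and 0.01), and with the replicate block in place of dye and array the Pnoc difference was 0.38 and no receptor probe was called. Spots near background limit Oprd1, the Oprm1 coding probe and Oprl1 A_55_P2066598, above all in Cy3.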
